A study of Mus musculus with 15 samples.

Results

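The signals of 10 genes that mark macrophages and monocytes were measured in whole hearts of male mice aged 10 weeks, 7 of them heterozygous for Lmna H222P and 8 controls, with 1 array per heart. Lmna encodes lamins A and C, which line the inside of the nuclear envelope, and H222P names a substitution of 1 amino acid. The genes were C1qa, C1qb, C1qc, Cd68, Csf1r, Adgre1, Mrc1, Ccl2, Ccr2 and Cx3cr1. They were followed in all probe sets annotated to exactly 1 of these 10 symbols, 18 of 45101 probe sets (10 of 18194 genes with such a probe set), and 17 of the 18 passed the filter on low signals and were tested. The labels do not give the strain, the litters or whether controls were littermates of the heterozygous mice. The p-values of group differences therefore judge a difference of means only against the spread between these hearts.

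Resident cardiac macrophages engulf dying cells and debris, are maintained by signalling through the receptor encoded by Csf1r, and commonly express Adgre1 (the F4/80 antigen), Mrc1 and the 3 genes of complement C1q. Circulating monocytes that carry the chemokine receptor Ccr2 are drawn into injured heart by its ligand Ccl2, while patrolling monocytes and many tissue macrophages carry the fractalkine receptor Cx3cr1. In RNA of a whole heart, a change in the number of such cells and a change in RNA per cell cannot be told apart.

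None of the 10 genes passed the test of the difference between the groups. The SD of the log2 signal was larger among heterozygous than among control hearts in 9 of the 10. Over all tested probe sets that share was 63.7%, and it was 66.4% among those with a mean log2 signal above 7. In their brightest probe sets C1qa, C1qb, C1qc, Cd68, Mrc1 and Adgre1 were above every control in heterozygous hearts 1 and 3 and below the control mean in heterozygous heart 6. The limma test with Benjamini-Hochberg adjustment over all 38870 tested probe sets passed 0 of 17 member probe sets at a threshold of 0.05, where it passed 0.252% of all tested probe sets, 0.0900% higher and 0.162% lower in heterozygous hearts. The smallest adjusted p among the members was 0.322, that of Cd68. At an unadjusted p under 0.05 there was 1 of 17, against 14.6% of all tested probe sets. The groups overlapped in all 17, against 0.468% of all tested probe sets whose groups did not overlap. The difference was above 0 in 9 of 17, against 39.9% of all.

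The array signal is a relative brightness in the units of the deposited table, in which every array has the same trimmed mean. Array medians lay between 56.7 and 82.9 units in heterozygous hearts and between 68.5 and 94.2 units in control hearts. Over all tested probe sets the median difference of log2 signals, heterozygous minus control, was -0.11, and it was 0.10 when the array median was subtracted first. The split of calls moved with it: 35 probe sets were higher and 63 lower on the deposited scale, 51 higher and 14 lower after centring, and 37 higher and 28 lower after quantile normalization. The ratio of the 3-prime to the 5-prime probe set of beta-actin, which rises as RNA degrades, was 3.23, 2.49 and 2.67 in heterozygous hearts 2, 3 and 5 and 2.34 in control heart 6, and at most 1.89 in the other 11 hearts. All 8 ventricular muscle markers were above the median of their own array on all 15 arrays. Of the members, every probe set of C1qa, C1qb, C1qc, Cd68, Csf1r, Adgre1 and Mrc1 was above the median of its array on all 15 arrays. The brightest probe sets of Cx3cr1, Ccl2 and Ccr2 were above it on 11, 7 and 6 arrays, so those 3 genes were measured close to the level where signals scatter most.

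**Figure D1:**
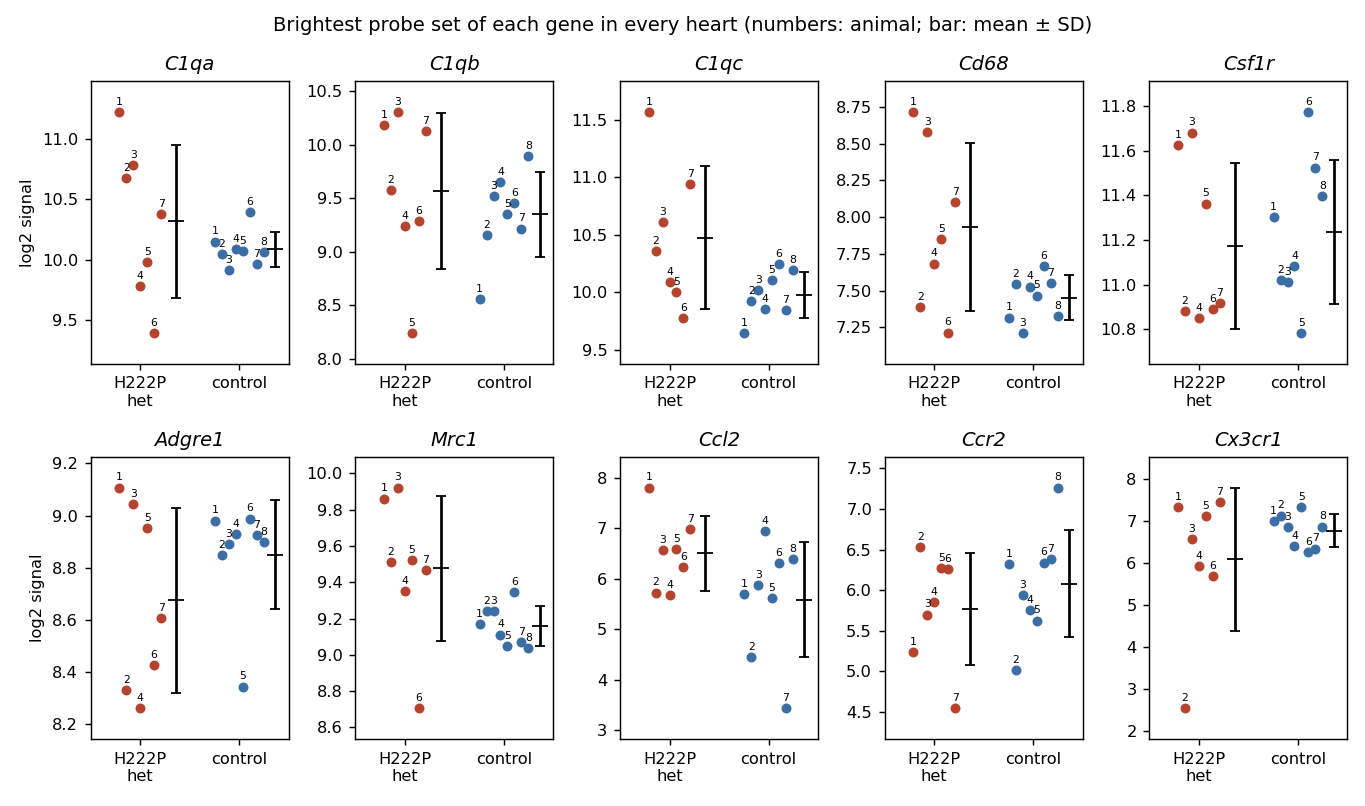
Log2 signal of the brightest tested probe set of each of the 10 genes in 7 H222P heterozygous hearts (red) and 8 control hearts (blue). Each point is a heart, numbered as in the titles, and the bar gives the mean ± SD. The heterozygous points of C1qa, C1qc, Cd68 and Mrc1 span a wider range than the control points, and hearts 1 and 3 lie at or near the top.

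C1q is the recognition unit of the classical complement pathway, a protein assembled from chains A, B and C, and macrophages are its main source in most tissues. C1qa (1417381_at), the A chain, measured 672.5 to 2396.3 units in heterozygous hearts with a median of 1332.9, against 963.3 to 1349.6 units with a median of 1072.9 in control hearts. Heterozygous hearts 1, 2 and 3 exceeded every control, hearts 4 and 6 lay below every control, and hearts 5 and 7 lay within the control range. On the log2 scale the means were 10.32 ± 0.64 (SD, n = 7) in heterozygous and 10.09 ± 0.15 (SD, n = 8) in control hearts, a ratio of geometric means of 1.17 (95% interval 0.831 to 1.66, adjusted p = 0.683 in limma's test).

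C1qc (1449401_at), the C chain, gave 875.2 to 3033.7 units with a median of 1311.3 in heterozygous hearts, against 802.3 to 1212.7 units with a median of 1003.8 in control hearts. Heterozygous hearts 1, 2, 3 and 7 exceeded every control and the other 3 lay within the control range. Its ratio was 1.41 (95% interval 0.999 to 2.00), a log2 difference of 0.50 ± 0.23 (SE, adjusted p = 0.346 in limma's test). Without heterozygous heart 1 the log2 difference of C1qc was 0.32.

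The B chain gene C1qb had 3 probe sets, all tested. In the brightest, 1417063_at, signals ran from 303.3 to 1265.1 units with a median of 761.7 in heterozygous hearts, against 376.7 to 948.9 units with a median of 677.5 in control hearts. Heterozygous hearts 1, 3 and 7 exceeded every control, while heterozygous heart 5 lay below them. The log2 differences of the 3 probe sets were 0.22, 0.12 and 0.16, with limma's adjusted p between 0.770 and 0.829. When each heart was left out in turn, that of 1417063_at ran from 0.094 without heterozygous heart 3 to 0.44 without heterozygous heart 5, and that of 1437726_x_at from 0.019 to 0.29 without the same hearts. The other 2 probe sets carry the suffix x, which Affymetrix gives to sets with probes that may also bind other transcripts. In 1434366_x_at heart 1, at 690.4 units, did not exceed the highest control, at 714.9 units. Heart 5 was within the control range in 1434366_x_at, at 508.1 units, and below it in 1437726_x_at, at 393.5 units. The 3 C1q genes lie next to each other on chromosome 4 in the RefSeq gene table of GRCm38.p6.

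Promoters are shown for C1qb, C1qc, Cd68 and Mrc1, the members above every control in heterozygous hearts 1 and 3 in their brightest probe set for which a window was at hand. Each sequence is the 250 bases before the annotated start, 5′ to 3′ on the gene's strand, in build GRCm38.p6. Capitals mark the hexamer GAGGAA, or TTCCTC where it lies on the other strand, which is a core that the myeloid transcription factor PU.1 binds.
C1qb, chr4:136886201-136886450, minus strand: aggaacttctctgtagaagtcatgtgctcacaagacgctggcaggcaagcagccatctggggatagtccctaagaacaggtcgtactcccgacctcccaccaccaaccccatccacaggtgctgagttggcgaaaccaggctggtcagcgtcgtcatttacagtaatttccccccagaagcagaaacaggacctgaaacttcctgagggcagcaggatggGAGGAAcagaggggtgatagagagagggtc
C1qc, chr4:136892915-136893164, minus strand: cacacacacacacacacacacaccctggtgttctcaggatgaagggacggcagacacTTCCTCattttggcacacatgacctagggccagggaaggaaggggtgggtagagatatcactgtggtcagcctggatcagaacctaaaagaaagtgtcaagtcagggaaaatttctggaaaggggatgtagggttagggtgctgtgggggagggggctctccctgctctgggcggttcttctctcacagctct
Cd68, chr11:69666171-69666420, minus strand: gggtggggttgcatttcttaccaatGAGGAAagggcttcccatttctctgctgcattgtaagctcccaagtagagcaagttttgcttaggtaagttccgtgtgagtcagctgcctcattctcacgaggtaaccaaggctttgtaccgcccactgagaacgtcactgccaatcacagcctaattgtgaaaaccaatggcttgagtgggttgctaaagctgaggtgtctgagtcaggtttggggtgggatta
Mrc1, chr2:14229164-14229413, plus strand: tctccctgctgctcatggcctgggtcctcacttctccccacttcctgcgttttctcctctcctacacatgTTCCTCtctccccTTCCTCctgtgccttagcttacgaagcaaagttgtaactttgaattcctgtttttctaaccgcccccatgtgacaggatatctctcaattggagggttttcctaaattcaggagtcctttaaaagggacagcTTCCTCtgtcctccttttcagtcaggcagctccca
The hexamer was in 4 of 6 member windows, against 23.3% of all 32851 promoter windows of the same length, counting both strands. All 4 windows shown held it, Mrc1 in 3 places, and those of Ccr2 and Cx3cr1 held none. The windows shown were chosen by signals in these data, and a link between hexamer and signal was not tested. A C/EBP pattern, TTNNGNAA, was found in 4 of 6 member windows, against 36.8% of all windows. An NF-kB pattern, GGG and CC separated by any 5 bases, was also in 4 of 6, against 45.8%. An AP-1 pattern, TGANTCA, was in 1 of 6, that of Cd68, against 6.75%. No match of one motif overlapped a match of another in these 6 windows. A match describes letters in the window and is no evidence of binding. C1qa, Csf1r, Adgre1 and Ccl2 are named without a sequence.

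Cd68 encodes a glycoprotein of macrophage lysosomes. Its probe set 1449164_at measured 148.6 to 420.2 units with a median of 230.4 in heterozygous hearts, against 148.4 to 203.2 units with a median of 180.6 in control hearts. Hearts 1, 3, 4, 5 and 7 exceeded every control, and hearts 2 and 6 lay within the control range. The log2 means were 7.93 ± 0.57 (SD, n = 7) in heterozygous and 7.45 ± 0.15 (SD, n = 8) in control hearts, a ratio of 1.40 (95% interval 1.02 to 1.92). This was the 1 member probe set with an unadjusted p under 0.05 in limma's test.

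Mrc1 encodes the mannose receptor CD206, which takes up glycoproteins and is abundant on resident cardiac macrophages. In 1450430_at it measured 417.2 to 969.8 units with a median of 730.7 in heterozygous hearts, against 525 to 650.2 units with a median of 564.45 in control hearts. All heterozygous hearts but heart 6 exceeded every control, and heart 6 lay below every control. The log2 difference was 0.32 ± 0.17 (SE), a ratio of 1.25 (95% interval 0.977 to 1.60, adjusted p = 0.393 in limma's test). Without heart 6 the log2 difference of Mrc1 was 0.45 with an adjusted p of 0.189 in limma's test, the smallest adjusted p of any member over the 25 other fits.

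Adgre1 encodes F4/80, the surface antigen used to identify mouse macrophages. Its probe set 1451161_a_at measured 306.3 to 551.4 units with a median of 389.4 in heterozygous hearts, against 324.6 to 507.9 units with a median of 481.05 in control hearts. Heterozygous hearts 1 and 3 exceeded every control and hearts 2 and 4 lay below every control. Control heart 5, at 324.6 units, stood apart from the other 7 controls, which reached down to 461.1. The ratio was 0.885 (95% interval 0.691 to 1.13, adjusted p = 0.661 in limma's test), and its log2 difference of -0.18 became 0.029 after centring on the array median.

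Csf1r encodes the receptor for colony-stimulating factor 1 and interleukin 34, on which macrophage survival depends. Its brightest probe set, 1419872_at, measured 1844.7 to 3285.7 units with a median of 1934.4 in heterozygous hearts, against 1762.3 to 3503.4 units with a median of 2345.2 in control hearts. Every heterozygous value lay within the control range. The 3 probe sets had log2 differences of -0.06, -0.04 and -0.31, with limma's adjusted p between 0.486 and 0.958. The first 2 were above 0, at 0.14 and 0.17, after centring on the array median, so that they have no settled direction. In 1419873_s_at control heart 6 stood apart at 1173.1 units, and heterozygous heart 1 exceeded it at 1310.1 units. In 1423593_a_at the range was 282.7 to 539.5 units in heterozygous and 304.2 to 700.7 units in control hearts.

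**Figure D2:**
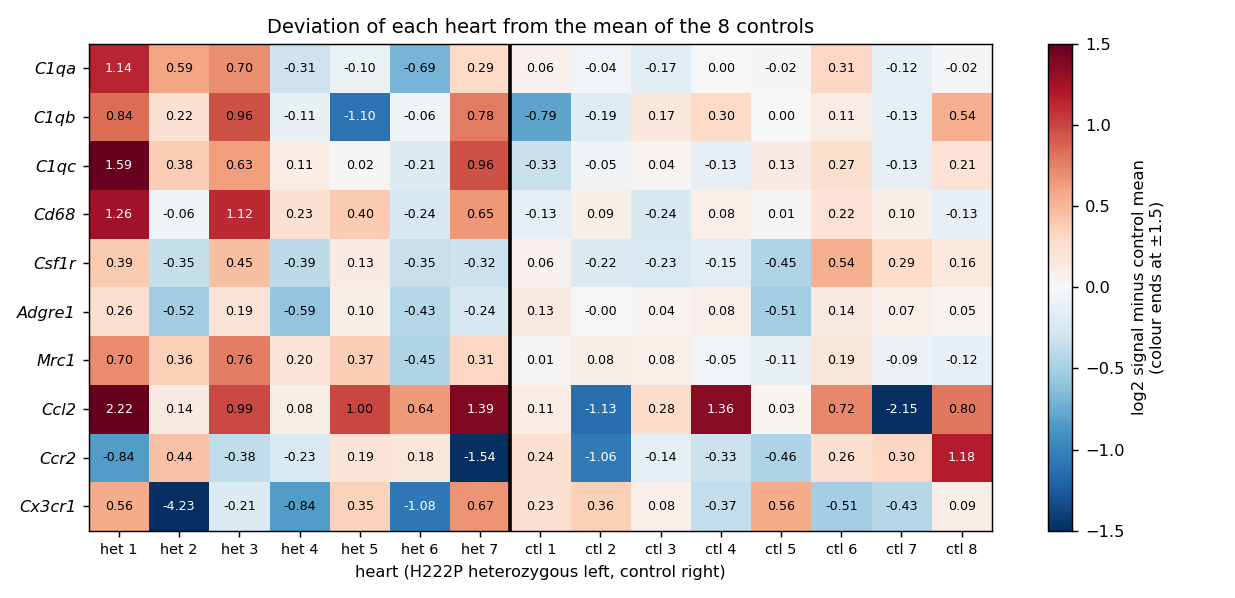
Log2 signal of each gene's brightest tested probe set minus the mean of the 8 controls, for 7 H222P heterozygous hearts (left of the line) and 8 control hearts (right). Red is above and blue below the control mean. Heart 1 is above it in 9 of 10 genes and heart 6 in 2 of 10.

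Ccl2 encodes the chemokine MCP-1, which recruits monocytes, and Ccr2 encodes its receptor. Ccl2 (1420380_at) measured 50.9 to 223.3 units with a median of 95.3 in heterozygous hearts, against 10.8 to 123.3 units with a median of 55.1 in control hearts. Heterozygous hearts 1 and 7 exceeded every control, and the other 5 lay within the control range. The ratio was 1.89 (95% interval 0.937 to 3.83, adjusted p = 0.390 in limma's test), and the log2 SD was 0.74 in heterozygous and 1.14 in control hearts. The log2 difference of 0.92 was 0.39 when log2 signals under 6 were set to 6, and 0.61 without control heart 7. These signals straddled the array medians, being above them in 5 of 7 heterozygous and 2 of 8 control hearts.

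The 4 probe sets of Ccr2 did not point one way. The brightest, 1421188_at, measured 23.3 to 92.1 units with a median of 57.8 in heterozygous hearts, against 32.4 to 153.5 units with a median of 70.75 in control hearts. Heterozygous heart 7 lay below every control and the other 6 lay within the control range. The log2 difference was -0.31 (adjusted p = 0.709 in limma's test). That of 1421186_at was 0.85 (adjusted p of 0.412 in limma's test), with hearts 1 and 2 at 122.7 and 123.6 units against at most 66.4 in control hearts. Those of 1421187_at and 1460067_at were -0.76 and -0.67 (limma's adjusted p of 0.628 and 0.489). Deviations from the group means correlated between -0.20 and 0.45 across the 6 pairs of these probe sets over 15 hearts, a description of weak signals that share 1 scaling.

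Cx3cr1 encodes the receptor for the tethered chemokine CX3CL1. Its brighter probe set, 1450020_at, measured 5.8 to 174.1 units with a median of 94.6 in heterozygous hearts, against 76.5 to 160.9 units with a median of 115.9 in control hearts. Hearts 2, 4 and 6 lay below every control, at 5.8, 61 and 51.8 units, and heart 7 exceeded every control. The log2 difference of -0.68 (limma's adjusted p of 0.614) was -0.09 without heart 2 and -0.13 when log2 signals under 6 were set to 6. The other probe set, 1450019_at, exceeded a log2 signal of 4 on 6 arrays and was not tested. It measured 2.1 to 28.8 units in heterozygous and 5.4 to 88 units in control hearts, below the median of its array on all 15 arrays.

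**Figure D3:**
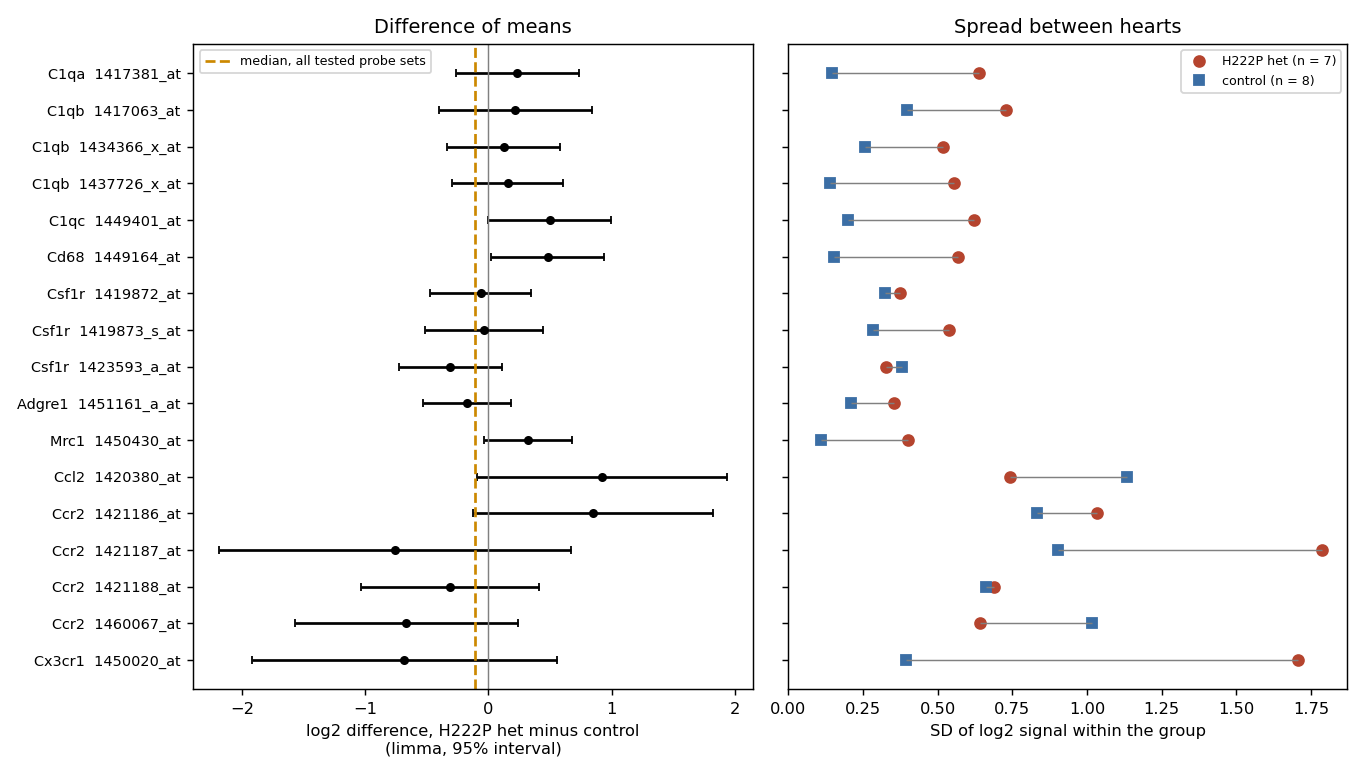
Left, log2 difference of heterozygous minus control means with its 95% interval from limma for the 17 tested member probe sets, with the median of all tested probe sets (-0.11) dashed. Right, the SD of log2 signals within 7 H222P heterozygous hearts (circles) and 8 control hearts (squares). It was larger in heterozygous hearts for 14 of 17, against 63.7% of all tested probe sets.

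The wider spread among heterozygous hearts was not equal across the genes. The SD of the log2 signal was larger in heterozygous than in control hearts for 9 of the 10 genes in their brightest probe set, all but Ccl2, and for 14 of 17 tested member probe sets. Over all tested probe sets the share was 63.7%. The ratio of the SDs, heterozygous over control, was 4.35 for C1qa, 4.32 for Cx3cr1, 3.74 for Cd68, 3.63 for Mrc1 and 3.10 for C1qc. It was 1.83 for C1qb, 1.69 for Adgre1, 1.15 for Csf1r, 1.04 for Ccr2 and 0.653 for Ccl2. A ratio above 2 was found in 5 of the 10 genes, against 14.5% of all tested probe sets and 16.7% of those with a mean log2 signal above 7. The spread was examined after the values had been seen and is given as a description. The same 5 genes had a ratio above 2 after centring or quantile normalization. Single hearts moved some of these ratios: it was 1.87 for Cx3cr1 without heterozygous heart 2, 2.08 for Mrc1 without heterozygous heart 6 and 1.20 for C1qb without heterozygous heart 5. It was 7.11 for Adgre1 without control heart 5, 7.96 for C1qa without control heart 6 and 2.86 for C1qb without control heart 1. Without heterozygous heart 1 it fell to 2.15 for C1qc, and was 3.71 for C1qa, 3.25 for Cd68, 3.60 for Mrc1 and 4.48 for Cx3cr1. Without the 4 hearts of high beta-actin ratio it was 9.99 for C1qa, 4.48 for C1qc, 4.74 for Cd68 and 5.54 for Mrc1, but 2.52 for Cx3cr1 and 1.21 for C1qb, and the median ratio of the 10 genes was 2.10, against 2.47 with them. A wider spread was not particular to the members, as other genes show, named after their values were seen. The log2 SD of the fibroblast marker Col3a1 was 0.71 in heterozygous and 0.10 in control hearts. It was 0.57 and 0.17 for the endothelial marker Cdh5 and 0.66 and 0.09 for the general myeloid gene Lyz2. The order was opposite for Ppbp, at 0.21 and 0.50, and for the adipocyte marker Adipoq, at 0.93 and 1.67.

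Heterozygous hearts differed from each other in how many member probe sets lay outside the control range. Heterozygous heart 1 exceeded all 8 controls in 10 of 17 member probe sets, against 13.3% of all tested probe sets. The counts were 8 of 17 for heart 3, against 13.8%, and 7 of 17 for heart 7, against 11.4%. Heart 2 exceeded all controls in 6 of 17, against 17.4%, hearts 4 and 5 in 2 of 17, against 10.0% and 14.9%, and heart 6 in 0 of 17, against 9.78%. Below all controls lay 6 of 17 in heart 6, against 18.9%, 5 of 17 in heart 4, against 21.6%, and 3 of 17 in hearts 2 and 5, against 17.3% and 17.1%. In heart 7 there were 2 of 17, against 15.6%, in heart 3 there was 1 of 17, against 13.9%, and in heart 1 there were 0 of 17, against 22.5%. Probe sets of the same gene share transcripts, so these counts are not counts of independent genes.

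Co-variation between genes was measured on deviations from the group means, so that a difference between genotypes could not create it. Over 15 hearts and 45 pairs of the 10 genes, Pearson's r had a median of 0.38, from -0.51 to 0.85, and 37 of 45 pairs were above 0. With the tested probe sets of all other single genes, the median r of each member lay between -0.03 and 0.01. The 95th percentile of that r was 0.39 to 0.53. With the other members the median r was -0.27 for Ccr2, against 0.22 for Cx3cr1 to 0.66 for Cd68 among the rest. A permutation of hearts within groups, two-sided and adjusted over the 45 pairs by Benjamini-Hochberg, passed 1 pair, Csf1r with Adgre1. For that pair r was 0.84 (permutation p = 6e-05, adjusted p = 0.0027) and Spearman's rho was 0.93 (permutation p = 5e-05, adjusted p = 0.00225), and r was 0.85 without the 2 hearts farthest from the median of Csf1r. Within heterozygous hearts r was 0.95 (exact permutation p = 0.000992, adjusted p = 0.0446, n = 7) and rho 0.96 (exact permutation p = 0.00278, adjusted p = 0.125). Within control hearts r was 0.68 (exact permutation p = 0.0557, adjusted p = 0.626, n = 8) and rho 0.79 (exact permutation p = 0.0279, adjusted p = 0.419). The pair lost the call without heterozygous heart 4, 6 or 7 (permutation, adjusted p = 0.0751, 0.0634 and 0.0567) and without the 4 hearts of high beta-actin ratio (adjusted p = 0.108), where r was 0.83. Only the brightest probe set of Csf1r, 1419872_at, entered the pair. Its deviations correlated at 0.77 with those of 1419873_s_at and at 0.19 with those of 1423593_a_at, and Adgre1 was not compared with those 2.

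In the main setting no pair of a C1q gene with Cd68 or Mrc1 passed. The r was 0.75, 0.49 and 0.76 for Cd68 with C1qa, C1qb and C1qc (permutation, adjusted p = 0.140, 0.290 and 0.115), and the rho was 0.59, 0.58 and 0.68 (permutation, adjusted p = 0.198, 0.193 and 0.145). Mrc1 had an r of 0.33 with C1qb (permutation, adjusted p = 0.501) and of 0.64 with C1qc (permutation, adjusted p = 0.220), and a rho of 0.38 and 0.49 (permutation, adjusted p = 0.367 and 0.254). Without the 2 hearts farthest from the median of the C1q gene, r was 0.39, 0.67 and 0.43 for Cd68 with C1qa, C1qb and C1qc, and 0.61 and 0.22 for Mrc1 with C1qb and C1qc. C1qa with Mrc1 had an r of 0.85 (permutation p = 0.00234, adjusted p = 0.0526) and a rho of 0.62 (permutation p = 0.0376, adjusted p = 0.145). Cd68 with Mrc1 had an r of 0.79 (permutation p = 0.00674, adjusted p = 0.0820) and a rho of 0.61 (permutation p = 0.0385, adjusted p = 0.145), and r was 0.61 without heterozygous hearts 1 and 6. C1qa with C1qc had an r of 0.82 (permutation p = 0.00729, adjusted p = 0.0820) and a rho of 0.68 (permutation p = 0.0335, adjusted p = 0.145). Without the 2 hearts farthest from the median of C1qa, heterozygous hearts 1 and 6, r was 0.64 with Mrc1 and 0.54 with C1qc. C1qb with C1qc had an r of 0.72 (permutation p = 0.0150, adjusted p = 0.112) and a rho of 0.83 (permutation p = 0.00191, adjusted p = 0.0430), so this pair passed by rank alone, and r was 0.73 without control heart 1 and heterozygous heart 5. C1qa with C1qb had an r of 0.54 (permutation p = 0.122, adjusted p = 0.271) and a rho of 0.63 (permutation p = 0.0519, adjusted p = 0.159). C1qb entered these pairs by 1417063_at alone. Its deviations correlated at 0.36 with those of 1434366_x_at and at 0.72 with those of 1437726_x_at. After centring on the array median 5 pairs passed, C1qa with C1qc, C1qb with C1qc, C1qc with Cd68, Cd68 with Csf1r, and Csf1r with Adgre1. C1qa with Mrc1 passed after quantile normalization (permutation, adjusted p = 0.018) but not after centring (adjusted p = 0.0610). It also passed without control heart 2, control heart 3 or heterozygous heart 1 (permutation, adjusted p = 0.0493, 0.0248 and 0.0441). C1qa with Cd68 passed without heterozygous heart 2 (permutation, adjusted p = 0.0054). With the beta-actin ratio as a covariate, C1qa with C1qc (r of 0.92) and Cd68 with Mrc1 (r of 0.90) passed, each with a permutation adjusted p of 0.0069.

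The median r over the 45 pairs was 0.58 within heterozygous hearts and 0.14 within control hearts. That difference was not tested, and correlations over so few hearts are imprecise. The lowest r within heterozygous hearts was that of C1qc with Ccr2, -0.72 (exact permutation p = 0.0623, adjusted p = 0.200, n = 7), with a rho of -0.71 (exact permutation p = 0.0881, adjusted p = 0.198), which did not pass.

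**Figure D4:**
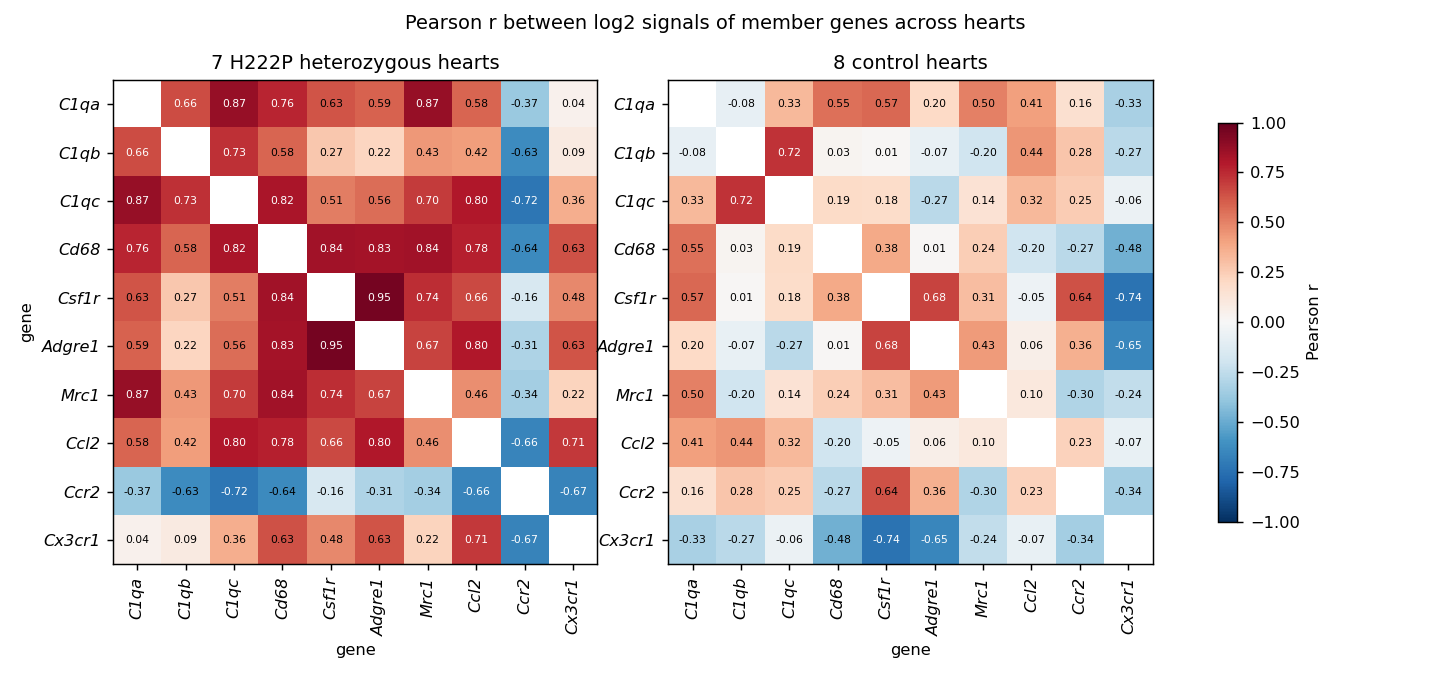
Pearson r of log2 signals between the brightest probe sets of the 10 genes, within 7 H222P heterozygous hearts (left) and 8 control hearts (right). Red is positive and blue negative. The median over the 45 pairs is 0.58 in heterozygous and 0.14 in control hearts.

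The probe sets of other genes most like the mean of the 3 C1q genes were ranked by r of deviations from the group means over 15 hearts, as a description that shares the arrays and their scaling. Among 30751 probe sets the median r was 0.00 and the 95th percentile was 0.45. The first 10 were Cxcl14, Cpxm2, Mapk6, Ccl8, Fcer1g, Folr2, Zfp787, Irx4, Lima1 and Daxx, with r from 0.90 for Cxcl14 to 0.80 for Daxx. Of these, 3 stand in the macrophage lists used here: Ccl8, a ligand of chemokine receptors, Fcer1g, the signalling chain shared by Fc receptors, and Folr2, a folate receptor of resident macrophages. Within heterozygous hearts the r with the C1q mean was 0.92 for Ccl8, 0.90 for Fcer1g and 0.85 for Folr2, and within control hearts it was -0.30, -0.01 and 0.55. Ccl8 measured 149.2 to 1908.1 units in heterozygous and 126.7 to 239.3 units in control hearts, a ratio of 1.97 (adjusted p = 0.326 in limma's test). Of 15 general myeloid genes, 12 had an r with the C1q mean above that 95th percentile, with a median of 0.63. The count was 6 of 17 for other resident macrophage genes, 1 of 9 for monocyte genes, 3 of 11 for ligands, 3 of 7 for complement partners and 0 of 7 for antigen presentation genes. Among other cells it was 2 of 8 for dendritic and mast cell genes and 1 of 7 for neutrophil genes. It was 0 of 9 for lymphocyte, 0 of 8 for fibroblast, 0 of 8 for endothelial, 0 of 8 for ventricular muscle, 0 of 6 for erythroid and platelet, 0 of 4 for atrial and 0 of 3 for adipocyte genes. Among the members, Cd68 ranked 55, Mrc1 162, Ccl2 1423, Csf1r 2279, Adgre1 2774, Cx3cr1 9814 and Ccr2 27277.

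Genes around the 10 members were described in the same way, 1 probe set per gene. Of 17 tested resident macrophage genes 0 rose and 0 fell, 13 lay above 0, and the median log2 difference was 0.10, against -0.11 over all tested probe sets. F13a1, a coagulation factor subunit made by tissue macrophages, had a ratio of 1.37, Vsig4, a complement receptor, 1.80, and Gas6, a ligand of receptors for dying cells, 1.26, with limma's adjusted p from 0.331 to 0.369. Of 15 general myeloid genes 0 passed and 10 lay above 0, with a median of 0.15. Coro1a, an actin-binding protein of leukocytes, had a ratio of 1.46, Laptm5, a lysosomal protein, 1.39, and Ptprc, the leukocyte antigen CD45, 1.36. The 5 below 0 were named after their values were seen. They were Itgam at a ratio of 0.645, Spi1 at 0.700, Fcer1g at 0.815, Cd14 at 0.911 and Aif1 at 0.959. Signals of Itgam lay below the array's median on all 15 arrays. Log2 differences of the other tested probe sets of Laptm5 ran from -1.41 to 0.91, and that of the other probe set of Gas6 was -0.31.

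Of 9 tested genes of a monocyte list, which mixes inflammatory with patrolling monocyte genes, 0 passed and 6 lay above 0. S100a4, a calcium-binding protein, measured 141.7 to 883.4 units in heterozygous and 38.5 to 225.9 units in control hearts, a ratio of 2.31 (adjusted p = 0.228 in limma's test). Nr4a1, a nuclear receptor needed by patrolling monocytes, had a ratio of 0.599 (limma's adjusted p of 0.245). Vcan, a matrix proteoglycan, had a ratio of 1.41 and other tested probe sets from -1.12 to 1.04 in log2 difference. In RNA of whole hearts the cells that gave the signals of S100a4, Nr4a1 and Vcan were not identified, so these are not values of monocytes alone. Of 7 tested antigen presentation genes 0 passed and 7 lay above 0, with a median of 0.22. Cd74, the class II invariant chain, measured 666.5 to 3980.6 units in heterozygous and 1120 to 1660.4 units in control hearts, so that heterozygous hearts lay on both sides of the controls.

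The ligands of the members did not pass either. Of 11 tested ligands 4 lay above 0 and the median was -0.05. Csf1, the main ligand of the Csf1r receptor, had a ratio of 1.11 (95% interval 0.842 to 1.47), and the other ligand, Il34, had 0.726 in a signal above its array's median on 1 of 15 arrays. Cx3cl1, the ligand of Cx3cr1, had a ratio of 0.990 (95% interval 0.741 to 1.32). Other tested probe sets had log2 differences of -0.64 to -0.20 for Csf1 and of -1.01 to -0.28 for Cx3cl1, so that those of Csf1 disagreed in sign. Csf2, a growth factor of myeloid cells, had a ratio of 0.348 in signals of 7.9 to 42.1 units in heterozygous and 20 to 198.3 units in control hearts (limma's adjusted p of 0.213). Ccl12, a further ligand of Ccr2, had a ratio of 2.31 with a 95% interval of 0.722 to 7.36.

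Of 7 tested complement partners 0 passed, 4 lay above 0 and the median was 0.45. C1ra and C1s1 encode proteases that associate with C1q and cleave the next components. C1ra measured 173.6 to 419.6 units in heterozygous and 109.5 to 251.4 units in control hearts, a ratio of 1.59 (95% interval 1.15 to 2.21, adjusted p = 0.203 in limma's test). C1s1 measured 156.3 to 1085 units in heterozygous and 116.1 to 297.9 units in control hearts, a ratio of 1.72 (adjusted p = 0.315 in limma's test). Serping1, the inhibitor of these proteases, had a ratio of 1.37 (adjusted p = 0.279 in limma's test). Cfp, a stabiliser of the alternative pathway, had a ratio of 2.50 (adjusted p = 0.271 in limma's test) in signals above the array's median on 7 of 15 arrays. The other 3, named after their values were seen, lay below 0: the classical pathway protease C2 at a ratio of 0.580, the C5a receptor gene C5ar1 at 0.848 and Calr, a chaperone that binds C1q, at 0.888.

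Markers of other cells were also read, and their part in the values above was not tested. The summed signal of 6 tested erythroid and platelet markers was 1747.5 to 3374 units in heterozygous and 3440.7 to 4329.8 units in control hearts, without overlap, and 2 of the 6 fell, Alas2 at a ratio of 0.387 and Ppbp at 0.256 (limma's adjusted p of 0.0255 and 0.00117). The 8 fibroblast markers summed to 18933.9 to 35919.9 units in heterozygous and 14026.6 to 18381.6 units in control hearts, also without overlap, with 0 passing and Dcn, a matrix proteoglycan, at a ratio of 1.84 and its other probe set at a log2 difference of -0.47. The 4 atrial markers summed to 6377.3 to 39682.1 units in heterozygous and 5519.1 to 10345.2 units in control hearts, and 3 rose. Sln, a regulator of the calcium pump, measured 241 to 5110.1 units in heterozygous hearts, against 2.8 to 406.7 units with a median of 6 in control hearts (limma's adjusted p of 0.0122), and its other tested probe set had a log2 difference of -0.94. The 7 tested neutrophil markers summed to 186.4 to 4269.6 units in heterozygous and 319.6 to 528.2 units in control hearts, highest in heart 2, with 0 passing, and S100a9, a calcium-binding protein of neutrophils, had a ratio of 4.99 (95% interval 1.01 to 24.8). Of these 7 markers 4 lay above 0 and 3 below, and Cxcr2, a chemokine receptor, had a ratio of 0.544 in signals below the array's median on all 15 arrays. The 9 lymphocyte markers summed to 271.9 to 581.2 units in heterozygous and 402.1 to 634.5 units in control hearts, with 0 passing and Cd3e and Nkg7 below their array's median on all 15 arrays. The 8 dendritic and mast cell markers summed to 392 to 699.4 units in heterozygous and 457.3 to 900.7 units in control hearts, with 0 passing and Mcpt4 and Ms4a2 below their array's median throughout. The 8 endothelial markers summed to 4528.3 to 7671.8 units in heterozygous and 4714.6 to 5504.3 units in control hearts, the 8 ventricular markers to 110955 to 292286 units and 143435 to 426198 units, and the 3 tested adipocyte markers to 99.2 to 394.2 units and 85.3 to 270.1 units, with 0 passing in each.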

How the data were processed

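Total RNA of 15 whole hearts was labelled with biotin and measured on 1-colour Affymetrix arrays, per the labels' protocols. The deposited table gives each probe set an intensity on each array. The submitters' processing notes name GCRMA, but the deposited values are linear, from 0.1 to 80754.9, with a mean of 250.0 on every array after trimming 2% at each end, so how the probes were summarised is not settled. Scan dates were not used here.

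Signals were log2-transformed with no pseudocount. The platform annotation gave 1 gene symbol for 34958 probe sets, several for 932 and none for 9211. After 64 control probe sets were left out, those with a log2 signal over 4 on 7 or more of the 15 arrays were tested, leaving 38870. Groups came from the titles. A model with 1 term for the group was fitted in limma 3.58.1 under R 4.3.3, with lmFit followed by eBayes, two-sided tests and Benjamini-Hochberg adjustment at 0.05. For each gene the tested probe set of highest mean signal stood for it. Intervals cover the spread between arrays, whose number limits the precision. Correlations used 100000 permutations within groups, or all permutations within 1 group, in Python 3.11.15 with numpy 2.4.6. The test was checked on simulated data. Promoter windows came from a table made from RefSeq for GRCm38.p6, in which 6 of the 10 genes were matched. Any pair of arrays had at most 0.291% identical values.

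The members and the gene lists were chosen with earlier results of these data known. Genes named beside the members were up to 3 per macrophage list by smallest p, the direct ligands and proteases, up to 2 per list of other cells, and the 10 probe sets most like the C1q mean. Further genes are marked in the text as named after their values were seen. The general myeloid list holds genes that neutrophils and other leukocytes also express. The alternatives were a filter at log2 6 or none, centring on the array median, quantile normalization, a floor at 6, array weights, another prior, the replicate number as a block, a beta-actin covariate, other choices per gene, an exact test and leaving out each array. Leaving out 4 arrays with a beta-actin ratio above 2, and all fits of the spread, were added after seeing the data.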

Additional observations from a re-analysis of the deposited data

Results flagged for a closer look

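In each group of each of the 18 member probe sets, 36 in all, the gap between the most extreme heart and its neighbour was set against the range of the group, on the log2 scale. Chance alone marks about 1 in 20 such groups, and 4 of 36 were marked. Heterozygous heart 2 stood below the other 6 in Cx3cr1 (1450020_at) at 5.8 units. Control heart 6 stood above the other controls in 1 probe set of Csf1r (1419873_s_at) at 1173.1 units. Control heart 5 stood below the other controls in Adgre1 (1451161_a_at) at 324.6 units and in 1 probe set of Ccr2 (1421186_at) at 9.7 units. The beta-actin ratio was 3.23 in heterozygous heart 2, 2.34 in control heart 6 and 1.49 in control heart 5, and its part in these values was not tested.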

How the results depend on the processing

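In the fit reported here and in 25 others 0 member probe sets passed, with a smallest adjusted p of 0.189 in limma's test. An exact permutation test of the mean difference, two-sided over 6435 splits and unadjusted, gave p = 0.0334 for Cd68, p = 0.0387 for C1qc and p = 0.0486 for Mrc1, and p of at least 0.0917 for the other 7 genes. It was run on the 10 genes alone, so its share over all probe sets is not known. For limma's unadjusted p under 0.05 that share was 14.6%. The exact test takes the spread to be equal in both groups, but the SD ratios of Cd68, C1qc and Mrc1 were 3.74, 3.10 and 3.63. Over all probe sets 98 passed, against 192 with the filter at 6, 65 after centring, 65 after quantile normalization, 287 with the floor, 312 with the trended and robust prior, and 17 to 150 when each heart was left out. The numbers do not pair the hearts: same-numbered hearts correlated between -0.06 and 0.06 over the tested probe sets, and with the replicate block, in which control heart 8 adds nothing, 1 probe set passed. The median difference of the 10 genes was 0.22, 0.43 after centring, and 0.10 to 0.32 when each heart was left out. Directions that turned were those of Csf1r, at 0.14 (1419872_at) and 0.17 (1419873_s_at) after centring and 0.082 (1419873_s_at) without the 4 hearts of high beta-actin ratio, of Adgre1, at 0.029 after centring, and of C1qb (1434366_x_at), at -0.13 without those 4 hearts. When each heart was left out, Csf1r ranged from -0.15 to 0.013 (1419872_at) and from -0.17 to 0.080 (1419873_s_at), and C1qb (1434366_x_at) from -0.0029 to 0.24. The median r of the 45 pairs was 0.38, and 0.47 after centring, 0.48 with the floor, 0.43 with the beta-actin covariate, 0.48 without the 4 hearts, and 0.24 to 0.48 when each heart was left out. Pairs that passed were 1, and 5 after centring, 2 after quantile normalization, 3 with the beta-actin covariate, 0 without the 4 hearts, and 0 to 2 when each heart was left out. The spread was larger in heterozygous hearts for 8 to 9 of 10 genes when each heart was left out. The causes of these shifts were not tested. Weak signals limit Ccl2, Ccr2 and Cx3cr1.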
